A study of Mus musculus with 48 samples.

Results

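Convergent tumor clones were T cell clones of 1 mouse and 1 subset whose TCRβ chains had the same V segment, J segment and CDR3 amino acid sequence but were encoded by different CDR3 nucleotide sequences. To find them, the 4 tumor libraries of a mouse and subset were pooled, and their reads were added up for each CDR3 nucleotide sequence with its segments. A group of sequences with the same V segment, J segment and amino acid sequence was called convergent when at least 2 of its nucleotide sequences had 20 reads or more and the second had at least 10% of the reads of the first. Of 222003 groups with a sequence of 20 reads or more, 8421 met this rule, and they held 19438 nucleotide sequences. CD4+ tumors held 1550 of them among 65610 groups (2.36%), and CD8+ tumors held 6871 among 156393 (4.39%). The members were chosen by their tumor reads, so their numbers, read shares and frequencies are given as a description with no test.

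The CDR3 of a TCRβ chain is the part that mainly contacts the peptide on an MHC molecule, and it is built when a V, a D and a J segment are joined in a developing T cell. Segment ends are trimmed and nucleotides without a template are added, so nearly every joining differs, and all descendants of a T cell carry its nucleotide sequence. Because most amino acids have several codons, separate joinings can encode the same chain, which is known as convergent recombination. A nucleotide sequence is therefore the usual mark of a clone, and an amino acid sequence with several nucleotide sequences is the usual mark of T cells that arose from separate precursors.

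The mice were female C57BL/6 animals (C57BL/6J in the study's methods) of 8 weeks that carried a Lewis lung carcinoma, a mouse lung tumor line, on each side of the back, and they were analysed 13 days after inoculation. None of the groups was tumor-free or treated. From each of 4 mice, numbered 5 to 8, each tumor was divided into 2 fragments, and CD4+ and CD8+ T cells were sorted from each fragment as live, TCRβ+, lineage-negative cells that an antibody given intravenously had not stained. CD44hi CD4+ and CD44hi CD8+ T cells of the dLN (draining lymph node) on each side were sorted in the same way. CD44hi is commonly used to mark T cells that have met antigen. The paper allows that many of the CD8+ CD44hi clones of the dLNs were not tied to the tumor. The 32 tumor libraries held between 411355 and 4840722 reads, or 8.61 to 47.2 reads per sorted cell. The libraries hold TCRβ transcripts only, so the subset labels could not be checked with marker genes. Among the convergent sequences, 3 of 3408 in CD4+ tumors and 61 of 16030 in CD8+ tumors were at least 10 times more frequent in the other subset of the same mouse. In CD4+ and CD8+ tumors, 6 and 11 convergent sequences were at least 100 times more frequent in the tumors of another mouse. Neither kind made up more than 0.529% of the convergent reads of a mouse and subset.

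The sequences of the groups with the most reads show what the rule selected. In CD8+ tumors, the group with the most reads used TRBV20 (chromosome 6 of GRCm38, 41188273 to 41188977) and TRBJ1-2 (41534001 to 41534048) and encoded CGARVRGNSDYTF. All 4 mice carried this amino acid sequence, in 4 nucleotide sequences of 20 reads or more, printed here as CDR3 sequences from 5′ to 3′ with capitals at the positions where they differ among themselves. Groups with a CDR3 of up to 14 amino acids are named by it here, and longer ones by their segments and mouse.
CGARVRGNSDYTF, sequence 1, mouse 6: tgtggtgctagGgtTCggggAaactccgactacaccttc
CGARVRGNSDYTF, sequence 2, mice 5, 6 and 7: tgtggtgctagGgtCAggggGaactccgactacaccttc
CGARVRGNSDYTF, sequence 3, mouse 5: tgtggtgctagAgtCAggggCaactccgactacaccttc
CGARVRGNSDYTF, sequence 4, mouse 8: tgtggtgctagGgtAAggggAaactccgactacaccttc

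Sequence 1 was read 215025 times in mouse 6 and in none of the other mice. Sequence 2 was read 60110 times in mouse 6, 41704 times in mouse 7, 986 times in mouse 5 and 12 times in mouse 8. Sequences 3 and 4 were the leading ones in mouse 5, with 13608 reads, and in mouse 8, with 11299 reads. The group was therefore convergent by the rule only in mouse 6, while the most frequent nucleotide sequence differed in each of the 4 mice.

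The group with the most reads in the CD8+ tumors of mouse 8 used TRBV26 (chromosome 6 of GRCm38, 41227505 to 41227993) and TRBJ1-1 (41533864 to 41533911) and had a CDR3 of 15 amino acids. Its sequences are shown because it was also convergent in mouse 6 and was carried by mouse 5 at a high frequency. Capitals again mark the positions that vary.
TRBV26/TRBJ1-1, sequence 1, mice 5 and 6: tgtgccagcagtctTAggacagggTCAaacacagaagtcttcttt
TRBV26/TRBJ1-1, sequence 2, mice 6 and 8: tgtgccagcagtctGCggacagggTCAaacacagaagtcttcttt
TRBV26/TRBJ1-1, sequence 3, mouse 8: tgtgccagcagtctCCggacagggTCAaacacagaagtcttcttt
TRBV26/TRBJ1-1, sequence 4, mouse 8: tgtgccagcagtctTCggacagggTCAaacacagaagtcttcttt
TRBV26/TRBJ1-1, sequence 5, mouse 6: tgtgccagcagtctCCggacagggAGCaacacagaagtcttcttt

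Of the CD4+ groups that were convergent in all 4 mice, the one with the most reads used TRBV1 (chromosome 6 of GRCm38, 40891229 to 40891885) with TRBJ2-4 (41543362 to 41543410) and encoded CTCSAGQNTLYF. It had 11 nucleotide sequences of 20 reads or more over the mice, which differed at 2 positions, both the last base of a codon. The 5 with the most reads over all mice are shown, with these positions in capitals.
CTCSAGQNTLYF, sequence 1, mice 6 and 7: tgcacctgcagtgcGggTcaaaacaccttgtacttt
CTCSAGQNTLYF, sequence 2, mice 5, 6, 7 and 8: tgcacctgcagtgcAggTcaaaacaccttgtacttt
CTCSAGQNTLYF, sequence 3, mice 6 and 8: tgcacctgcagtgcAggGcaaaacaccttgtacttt
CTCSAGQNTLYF, sequence 4, mouse 5: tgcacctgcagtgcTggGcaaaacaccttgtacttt
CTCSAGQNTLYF, sequence 5, mice 6 and 7: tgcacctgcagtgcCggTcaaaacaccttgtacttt

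The number of convergent groups in CD4+ tumors was 185, 371, 586 and 408 in mice 5, 6, 7 and 8, or 387.5 ± 164 (SD, n = 4 mice). CD8+ tumors held 555, 1443, 3635 and 1238 groups in the same order, or 1718 ± 1333 (SD, n = 4). CD8+ tumors had more groups than CD4+ tumors in every mouse, and mouse 7 had the most in both subsets. Without mouse 7, the mean in CD8+ tumors went to 1079. As a share of all groups with a sequence of 20 reads, convergent groups made up 1.99%, 2.33%, 2.55% and 2.35% in CD4+ tumors and 2.76%, 4.05%, 5.47% and 3.62% in CD8+ tumors of mice 5 to 8.

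These numbers moved with the depth. When the tumor reads of each mouse and subset were drawn to 3218841, the smallest total, the CD8+ tumors held 175, 91, 334 and 72 convergent groups and the CD4+ tumors 185, 288, 227 and 280 in mice 5 to 8. The CD8+ tumors then held fewer groups than the CD4+ tumors in mice 5, 6 and 8 and more in mouse 7, so the order of the subsets depended on the depth. The share of groups turned in the same way, to 1.85%, 1.74%, 2.93% and 1.32% in CD8+ and 1.99%, 2.26%, 1.83% and 2.12% in CD4+ tumors. With 6 reads drawn per sorted cell, the CD8+ tumors held 61, 206, 1164 and 350 groups and the CD4+ tumors 80, 179, 225 and 212. Mouse 5 then had fewer CD8+ than CD4+ groups, and mouse 7 held most of the CD8+ groups.

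**Figure D1:**
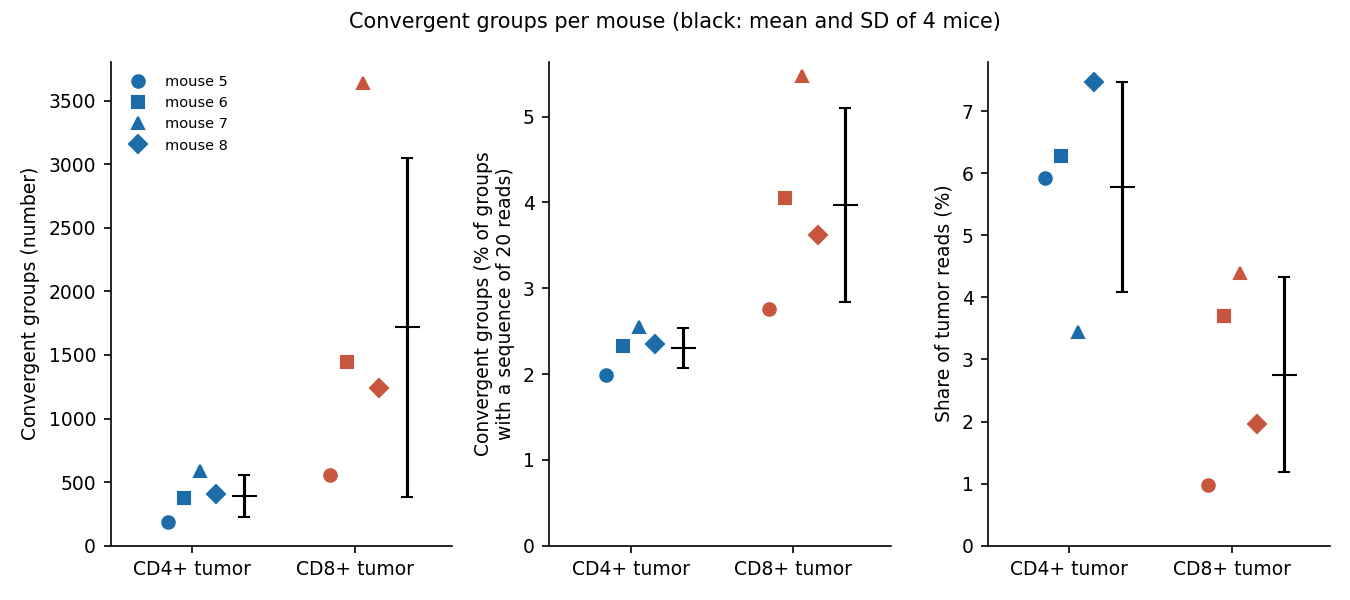
Number of convergent groups, their share of all groups with a sequence of 20 reads (%) and their share of tumor reads (%) in CD4+ and CD8+ tumors, with 1 point per mouse and the mean with SD of the 4 mice in black. At the full depth shown, CD8+ tumors held more groups in each mouse (555 to 3635 against 185 to 586). At equal depth they held fewer in mice 5, 6 and 8 (175, 91 and 72 against 185, 288 and 280). CD4+ tumors had the larger read share in mice 5, 6 and 8, and in mouse 7 too at equal depth (2.88% against 1.199%).

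The read share was compared in the same libraries. Reads come from TCRβ transcripts, so more cells of a clone and more RNA per cell cannot be told apart. Convergent groups held 5.92%, 6.28%, 3.44% and 7.47% of the tumor reads of CD4+ T cells in mice 5 to 8 (5.78% ± 1.69, SD, n = 4). For CD8+ T cells the shares were 0.973%, 3.70%, 4.39% and 1.96% (2.75% ± 1.57, SD, n = 4). The share was higher in CD4+ tumors of mice 5, 6 and 8 and, at full depth, higher in CD8+ tumors of mouse 7. At equal depth mouse 7 had 2.88% in CD4+ and 1.199% in CD8+ tumors, and with 6 reads per sorted cell 2.88% and 2.32%, so its order turned and CD4+ tumors had the larger share in all 4 mice. A single group held much of the CD8+ share, with 56.2% of the convergent reads of mouse 6 in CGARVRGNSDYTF and 38.1% of those of mouse 8 in the TRBV26/TRBJ1-1 group. The groups with the most reads in mice 5 and 7 held 1.78% and 5.67% of the CD8+ convergent reads. In CD4+ tumors the group with the most reads held between 7.99% and 21.2%. The left and the right tumor gave alike shares in CD4+ T cells, from 3.34% to 7.50% on the left and from 3.54% to 7.45% on the right. In CD8+ T cells the left and right shares were 1.04% and 0.861% in mouse 5, 3.604% and 3.88% in mouse 6, 4.38% and 4.39% in mouse 7, and 2.22% and 1.53% in mouse 8.

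Most groups were pairs. Of the 8421 groups, 6793 had 2 nucleotide sequences of 20 reads or more, 1084 had 3, 331 had 4, and 213 had 5 or more. The CD8+ group with the most sequences was TRBV13-1/TRBJ2-7 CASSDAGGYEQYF in mouse 7, with 16 sequences and 1610 reads in all. Its leading sequence had 570 reads, its second 204 and its last 23. The CD4+ group with the most sequences was TRBV20/TRBJ2-7 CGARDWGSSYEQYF in mouse 8, with 8 sequences and 3198 reads.

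Both thresholds cut through a continuous range. The CD8+ groups nearest to the ratio of 10% were a TRBV13-1/TRBJ2-1 group of mouse 8, inside with 338 and 34 reads, and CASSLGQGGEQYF (TRBV12-2/TRBJ2-7, mouse 8), outside with 313 and 31 reads. In CD4+ tumors, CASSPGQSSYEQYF (TRBV12-2/TRBJ2-7, mouse 8) lay on the threshold with 810 and 81 reads, and a TRBV12-2/TRBJ1-3 group of mouse 7 lay outside with 511 and 51 reads. The second sequence had exactly 20 reads in 370 CD8+ and 23 CD4+ groups, and a further 392 and 40 groups had 19 reads in it and stayed outside. The ratio alone kept out 537 groups in CD4+ and 168 in CD8+ tumors.

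Few groups had 2 frequent sequences. A sequence was called expanded when it made up at least 0.1% of reads, as the mean of the left and right tumors, which held for 0.866% of the CD4+ and 0.177% of the CD8+ sequences of 20 reads. Both leading sequences reached this level in 9 CD4+ groups, 3 in mouse 5, 3 in mouse 6, 1 in mouse 7 and 2 in mouse 8. In CD8+ tumors they reached it in 1 group of mouse 6 and 1 group of mouse 8. A further 25 CD4+ and 2 CD8+ groups had an expanded first sequence only, and in 1516 CD4+ and 6867 CD8+ groups neither was expanded. No second sequence reached 1%. The frequency of the second sequence had a median of 0.000475% to 0.00180% over the mice in CD4+ tumors and of 0.000250% to 0.000483% in CD8+ tumors. In estimated cells, the share of reads times the number of sorted cells, the median second sequence stood for 2.67 to 3.47 cells in CD4+ and 1.82 to 2.56 cells in CD8+ tumors.

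**Figure D2:**
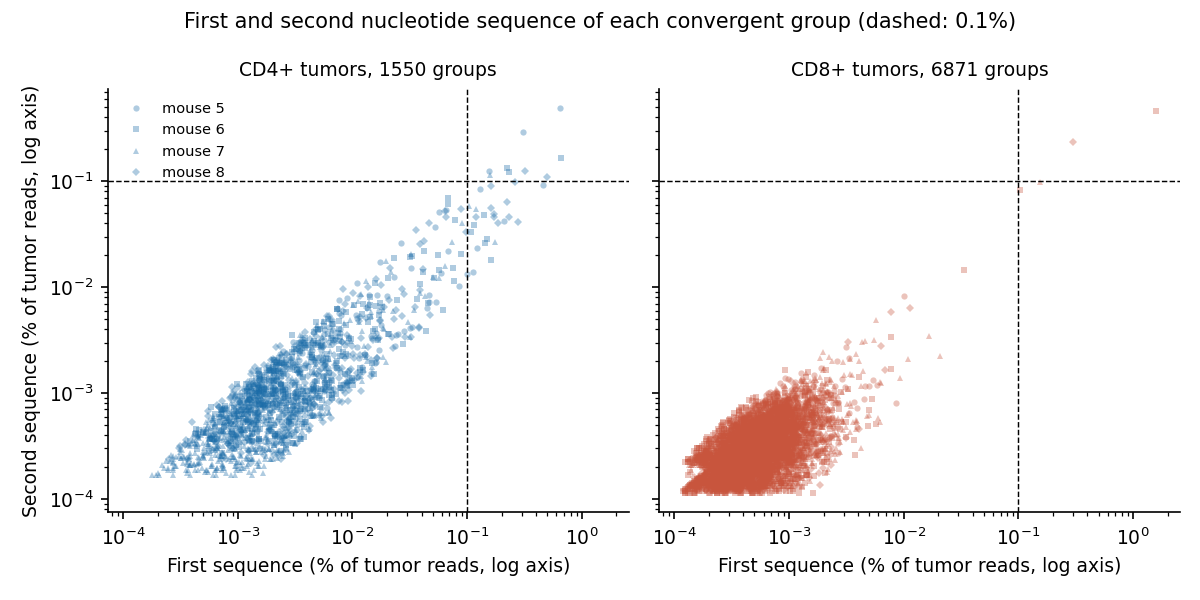
Frequency of the first (x axis) and second (y axis) nucleotide sequence of each convergent group in CD4+ tumors (left, 1550 groups) and CD8+ tumors (right, 6871 groups), as % of reads on log axes, mean of both tumors, with symbols for mice and dashed lines at 0.1%. The 9 CD4+ and 2 CD8+ groups in the upper right corner are those with both sequences at 0.1% or more, and the dense lower left holds the groups near the minimum of 20 reads.

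The convergent group with the most reads in the study was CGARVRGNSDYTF in the CD8+ tumors of mouse 6. Its first sequence was read 68561 and 80996 times in the left and 39298 and 26170 times in the right fragments, or 1.70% of the left and 1.48% of the right tumor. The second, 3 bases away, was read 15180 and 22919 times on the left and 12466 and 9545 times on the right, or 0.432% and 0.497%. Both were thus frequent in every fragment, and the second had 25.5% of the reads of the first in the left tumor and 33.6% in the right one. In the CD8+ CD44hi cells of the dLNs, the first sequence made up 0.0191% and 0.0400% and the second 0.0520% and 0.0490% on the left and right, so the second was the more frequent there. In the other mice the amino acid sequence made up 0.207% and 0.249% (mouse 5), 0.314% and 0.383% (mouse 7) and 0.0876% and 0.0868% (mouse 8) of the left and right CD8+ tumors. The first sequence was also present at 0.00580% in the CD4+ tumors of mouse 6.

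The TRBV26/TRBJ1-1 group had 3 frequent sequences in the CD8+ tumors of mouse 8, which differed at the last base of a leucine codon. The first, sequence 2 above, was read 10671 and 13359 times in the left and 6390 and 7927 times in the right fragments, or 0.295% and 0.299% of the tumors. The second, sequence 3, was read 24008 and 12732 times on the left but 0 and 924 times on the right, or 0.450% and 0.0193%. The third, sequence 4, was read 4102 and 4079 times on the left and 4271 and 8386 times on the right, or 0.100% and 0.264%. The first was thus alike on both sides, while the second was 21.5 times higher on the left and the third 2.65 times higher on the right in estimated cells, and both of these passed the test for differing clones described below. The second sequence was not read in either dLN, while the first was read 10 and 181 times and the third 16 and 73 times on the left and right.

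The same amino acid sequence was made up of other nucleotide sequences in the other mice. In mouse 6, sequence 5 led with 13126 reads and sequence 2 followed with 9021, 4 bases apart in the bases shown above. Sequence 2 made up 0.0377% of the left and 0.129% of the right tumor of mouse 6 and passed the test for differing clones. In mouse 5, sequence 1 alone was found, with 195046 reads and 3.13% and 2.73% of the left and right CD8+ tumors. It was also read 63 times in mouse 6 and 6 times in mouse 7, where no other sequence of the group was found. Whether these few reads were carried over from another library was not tested.

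A group of TRBV13-2 (chromosome 6 of GRCm38, 41121396 to 41121832) with TRBJ2-1 (41542754 to 41542803) was the CD8+ group of mouse 7 with the most reads and fell just short of 2 expanded sequences. It is shown for its second sequence, which encodes the same 16 amino acids as the first with changes in 2 codons, in capitals.
TRBV13-2/TRBJ2-1, first, mouse 7: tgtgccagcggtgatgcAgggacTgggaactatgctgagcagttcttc
TRBV13-2/TRBJ2-1, second, mouse 7: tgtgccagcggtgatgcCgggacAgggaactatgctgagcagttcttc
The first was read 4535 and 5203 times on the left and 3561 and 4815 times on the right, or 0.130% and 0.176%. The second was read 3602 and 4310 times on the left and 2325 and 2087 times on the right, or 0.106% and 0.0928%. In mouse 5, no CD8+ group came near this level, and the one with the most reads, TRBV12-2/TRBJ2-5 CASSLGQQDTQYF, had sequences of 637 and 495 reads.

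In CD4+ tumors the group of mouse 5 with the most reads used TRBV31 (chromosome 6 of GRCm38, 41557691 to 41558452, minus strand) with TRBJ1-3 (41534323 to 41534376) and had a CDR3 of 15 amino acids. Its sequences are shown because they are so close to each other. In the first and second, capitals mark the base where they differ, and in the other one the bases where it differs from the first.
TRBV31/TRBJ1-3, first, mouse 5: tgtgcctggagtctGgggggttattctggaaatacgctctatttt
TRBV31/TRBJ1-3, second, mouse 5: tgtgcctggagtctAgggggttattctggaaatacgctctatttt
TRBV31/TRBJ1-3, last, mouse 5: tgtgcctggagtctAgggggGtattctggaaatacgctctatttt
The first was read 2577 and 6518 times on the left and 4649 and 7000 times on the right, or 0.538% and 0.762%. The second was read 1940 and 6940 times on the left and 2785 and 4119 times on the right, or 0.525% and 0.452%. The last, at 0.0681% and 0.178%, was 2.33 times higher on the right in estimated cells and passed the test for differing clones. The second sequence was the most frequent one of this group in mice 6 and 8, with 40794 and 14427 reads, and the group was also convergent in mouse 8 but not in mice 6 and 7. Over both tumors and all mice, this TRBV31/TRBJ1-3 CDR3 made up between 0.184% and 1.39% of CD4+ reads. It made up between 0.0882% and 0.917% of the CD4+ CD44hi reads of the dLNs.

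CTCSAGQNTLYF had the most reads of the CD4+ groups of mouse 6 and was convergent in every mouse. In mouse 5 its first sequence made up 0.317% and 0.296% of the left and right tumors and its second 0.354% and 0.228%. In mouse 6 the first made up 0.732% and 0.594% and the second 0.184% and 0.149%. In mouse 7 the first was at 0.124% and 0.112% and the second at 0.0781% and 0.0323%, and in mouse 8 they were at 0.0546% and 0.0386% and at 0.0397% and 0.0402%. All of these 8 leading sequences were found in both tumors, and those of mice 5 and 6 and the first of mouse 7 made up 0.1% or more. The second in mouse 7 and the first in mouse 8 differed 2.42-fold and 2.08-fold between left and right in estimated cells and passed the test for differing clones. The leading sequence differed between mice, being sequence 2 in mice 5 and 7, sequence 1 in mouse 6 and another with 3733 reads in mouse 8. Sequence 2 was the only one with 20 reads or more in all 4 mice. Summed over its sequences, the group made up 0.114% to 1.02% of the tumors and 0.128% to 0.526% of the dLN libraries.

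The other CD4+ groups named by the rule had the most reads, or the largest second sequence, of mice 7 and 8. TRBV26/TRBJ2-7 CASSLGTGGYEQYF in mouse 7 had sequences of 18543 and 13473 reads that differed by 1 base. They made up 0.133% and 0.0866% of the left and 0.181% and 0.142% of the right tumor, so both were higher on the right. TRBV15/TRBJ1-5 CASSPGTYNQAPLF in mouse 8 had sequences of 41185 and 9058 reads, also 1 base apart, at 0.442% and 0.100% on the left and 0.542% and 0.117% on the right. A TRBV16/TRBJ2-3 group in mouse 8 had sequences of 26313 and 10586 reads, 3 bases apart, at 0.338% and 0.109% on the left and 0.306% and 0.143% on the right. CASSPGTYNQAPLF was found in no other mouse, and the TRBV16/TRBJ2-3 group was found in 1 other, with a single sequence in mouse 7. The remaining CD4+ groups with both sequences expanded, named after their values were seen, were TRBV13-1/TRBJ2-7 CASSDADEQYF in mouse 5 and TRBV3/TRBJ2-1 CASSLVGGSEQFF and TRBV1/TRBJ2-4 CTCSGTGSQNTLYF in mouse 6. Their second sequences made up 0.124%, 0.123% and 0.133% of reads.

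All 11 groups with both leading sequences at 0.1% or more had both sequences in both tumors, as did 100% of the other CD4+ sequences and 99.2% ± 0.924 of the other CD8+ sequences at this frequency (SD, n = 4 mice). In the 9 CD4+ groups, the first sequence differed by at most 1.53-fold and the second by at most 1.67-fold between left and right in estimated cells. The second sequence of the TRBV26/TRBJ1-1 group in mouse 8 was the only one of these 22 sequences that passed the test for differing clones, which asks for a fold above 2. Some others had q under 0.01 with a smaller fold, such as both of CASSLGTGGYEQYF in mouse 7 (Fisher's exact test, q = 0.000924 and 4.92e-07). The first sequence was found in a dLN in all 11 groups and the second in 8 of 9 CD4+ and 1 of 2 CD8+ groups.

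**Figure D3:**
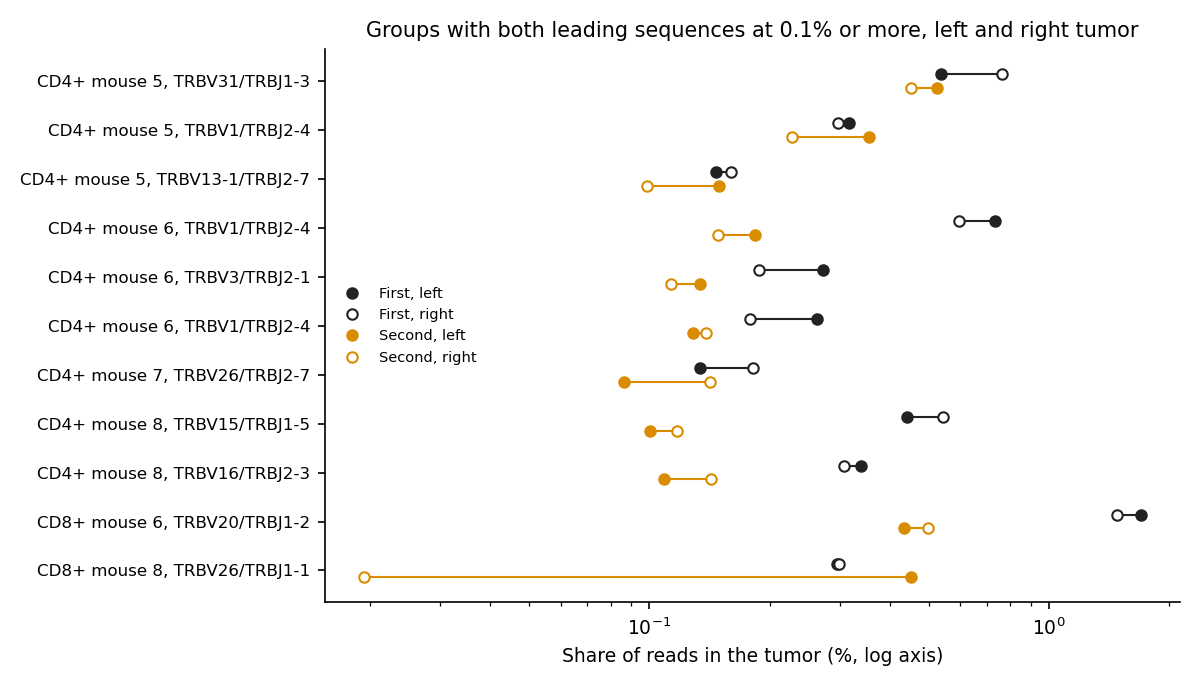
Share of reads (%, log axis) of the first (black) and second (orange) sequence in the left (filled) and right (open) tumor for the 11 groups with both at 0.1% or more, of which the upper TRBV1/TRBJ2-4 group of mouse 6 is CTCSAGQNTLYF and the lower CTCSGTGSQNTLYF. Left and right lie close together for all sequences except the second of TRBV26/TRBJ1-1 in mouse 8, at 0.450% on the left and 0.0193% on the right.

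Over all groups, the leading sequences were less often found on both sides than these examples. The first sequence was found in both tumors in 49.7%, 46.9%, 49.3% and 55.4% of the CD4+ groups of mice 5 to 8, and the second in 24.6% to 25.9%. Both were found in both tumors in 21.1%, 19.9%, 18.6% and 21.1%, which is 308 of the 1550 groups. In CD8+ tumors both were found in both tumors in 3.96%, 6.24%, 9.33% and 5.09%, or 514 of 6871 groups. This gap between the subsets depended on the depth. At equal depth the shares were 21.1%, 25.7%, 42.3% and 28.6% in CD4+ and 6.29%, 35.2%, 37.1% and 33.3% in CD8+ tumors of mice 5 to 8, so CD8+ tumors had the larger share in mice 6 and 8. With 6 reads per sorted cell they were 48.8%, 39.1%, 42.2% and 37.3% in CD4+ and 18.0%, 24.3%, 21.0% and 14.0% in CD8+ tumors, so CD4+ tumors had the larger share in all 4 mice. Counted by single sequence, 28.8% of all CD4+ and 15.0% of all CD8+ sequences of 20 reads were found in both tumors. These are not the same measure as the shares of groups, which need 2 sequences on both sides. Taking all members, 36.7% ± 2.01 of the convergent CD4+ sequences were in both tumors and 28.5% ± 1.63 of the other sequences of the same mice (SD, n = 4). For CD8+ T cells the shares were 21.0% ± 3.83 and 13.4% ± 2.02. The members were higher in 4 of 4 mice in both subsets, but these values come from the libraries that chose the members and carry no test.

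In 280 CD4+ and 1856 CD8+ groups, the first sequence was found on 1 side only and the second only on the opposite side. Applied to each tumor alone, the rule found 844 groups in the left and 832 in the right CD4+ tumors, of which 270 were the same group on both sides of a mouse. In CD8+ tumors it found 3323 on the left and 1868 on the right, of which 520 were the same. By mouse, the common CD4+ groups were 27, 68, 103 and 72 for mice 5 to 8, which is 23.3% to 34.7% of those of the left and 31.0% to 33.8% of those of the right tumor. The common CD8+ groups were 22, 89, 337 and 72.

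Where both sequences were in both tumors, the one that led on the left also led on the right in 66.7%, 71.6%, 73.4% and 79.1% of the CD4+ groups of mice 5 to 8. In CD8+ tumors it did so in 11 of 22, 45 of 90, 158 of 339 and 29 of 63 groups. Among the CD4+ groups whose second sequence made up at least 0.01%, the leader was the same in 65.0% to 84.6%. In CD8+ tumors there were 5 such groups, 4 of them described above. The fifth, named after its values were seen, was TRBV4/TRBJ2-1 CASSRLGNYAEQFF in mouse 6, whose sequences made up 0.0338% and 0.0145%.

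Clones that differed between the left and right tumor of a mouse were called over all clones by Fisher's exact test on estimated cells, with Storey's q under 0.01 and a fold above 2. Of all sequences of 20 reads, 3.37% in CD4+ and 0.313% in CD8+ tumors were called. Among the members, 10, 35, 29 and 60 sequences were called in CD4+ tumors of mice 5 to 8, or 2.56%, 4.28%, 2.25% and 6.57%, beside 2.56%, 2.47%, 1.98% and 6.45% of all sequences. In CD8+ tumors 0, 8, 11 and 5 members were called, or 0.0%, 0.244%, 0.126% and 0.177%, beside 0.245%, 0.277%, 0.289% and 0.436%. The share of members called was near that of all sequences in CD4+ tumors of mice 5, 7 and 8 and above it in mouse 6. In CD8+ tumors it was numerically lower in each mouse, but by little in mouse 6 (0.244% beside 0.277%). These CD8+ shares rest on few calls, and the median member stood for at most 3.14 estimated cells in any mouse. Shares were not compared at like tumor frequency, so no direction is read from them. There is 1 left and 1 right tumor per mouse, so each call compares these libraries only.

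Both leading sequences of a group were called in 5 groups, all in CD4+ tumors, and these were named after their values were seen. In 3 of them both were higher on the same side, namely TRBV1/TRBJ2-2 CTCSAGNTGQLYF in mouse 5, and TRBV13-1/TRBJ1-1 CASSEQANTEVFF and TRBV13-2/TRBJ2-5 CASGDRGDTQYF in mouse 7. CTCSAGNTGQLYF was read on the right only, with its sequences at 0.0342% and 0.0119%. In the other two the sequences were higher on opposite sides. A TRBV13-2/TRBJ2-7 group in mouse 8 had its first sequence at 0.0126% on the right and none on the left, and its second at 0.0108% on the left and none on the right. In a TRBV5/TRBJ2-2 group of mouse 6 the first was at 0.0713% in the left tumor and 0.0415% in the right one, and the second at 0.00251% and 0.0263%. A second sequence was called in 3 CD8+ groups, the TRBV26/TRBJ1-1 group in mice 6 and 8 and TRBV12-2/TRBJ2-4 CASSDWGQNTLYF in mouse 7, also named after their values were seen.

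The first and second sequences of a group were close to each other. They differed by 1 base in 61.6%, 63.9%, 60.1% and 53.2% of the CD4+ groups of mice 5 to 8 and in 55.1%, 52.7%, 51.9% and 51.5% of the CD8+ groups. A further 24.9% to 31.4% of CD4+ and 32.3% to 34.6% of CD8+ groups differed by 2 bases, and the largest distance was 9 bases. Since the amino acids are the same, most differing bases had to be at silent positions, and 86.0% to 90.0% in CD4+ and 90.1% to 92.6% in CD8+ tumors were the last base of a codon. Of the differing bases, 63.0% to 67.0% in CD4+ and 67.1% to 70.9% in CD8+ tumors lay between the end of V and the start of J of the first sequence. Counting all CDR3 bases, also those that cannot change silently, this stretch held 18.2% to 18.8% of them in CD4+ and 20.6% to 21.2% in CD8+ groups. It is where trimming and added nucleotides act. The authors' clone assembly corrects for PCR and sequencing errors, and the share of single-base pairs that remained from such errors was not tested. When only sequences at least 2 bases from the first were counted, the mean number of groups was 166 in CD4+ and 918.5 in CD8+ tumors.

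At full depth, the V segments differed between the subsets in how many groups were convergent, and the shares by segment were not taken at matched depth. In CD8+ tumors, TRBV12-2 (chromosome 6 of GRCm38, 41118851 to 41119364) had the most convergent groups, 1823, followed by TRBV12-1 (41113550 to 41114067) with 715 and TRBV13-2 with 702. Of all CD8+ groups with TRBV12-2, 8.90% were convergent, between 6.03% and 10.6% over the mice. For TRBV12-1 and TRBV13-2 the shares were 6.02% (4.11% to 7.69%) and 5.52% (3.60% to 6.77%), beside 4.39% of all CD8+ groups. In CD4+ tumors TRBV12-2 had 9 convergent groups, 0.744% of its groups (0.0% to 1.42%). The ranges of the subsets did not overlap for TRBV12-2. Neither did they over all groups, with 1.99% to 2.55% in CD4+ and 2.76% to 5.47% in CD8+ tumors.

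In CD4+ tumors TRBV13-2 led with 424 convergent groups, followed by TRBV1 with 178 and TRBV3 (41048290 to 41048828) with 103. The share of their groups that were convergent was 3.50% (2.53% to 4.17%), 3.16% (2.93% to 3.47%) and 2.17% (1.76% to 3.15%), beside 2.36% of all CD4+ groups. TRBV1 held 21.1% of the CD4+ convergent reads with 11.5% of the convergent groups. In CD8+ tumors TRBV20 held 20.8% of the convergent reads with 0.728% of the groups, through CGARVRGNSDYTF, and TRBV26 held 9.93% with 1.85%. The segments of the TRBV12 and TRBV13 families are close copies of each other, and how the reads were divided among them was not checked here.

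**Figure D4:**
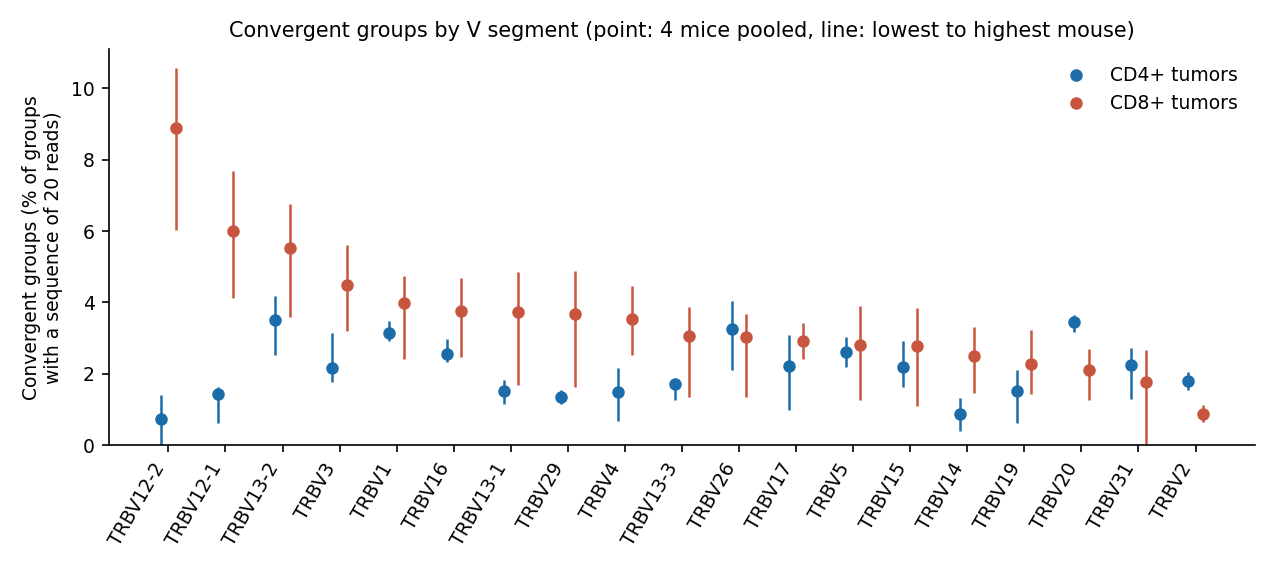
Share of the groups of each V segment that were convergent (%), in CD4+ (blue) and CD8+ (red) tumors, for V segments with at least 1000 groups in both subsets, with points for the 4 mice together and lines from the lowest to the highest mouse. At full depth, TRBV12-2 was at 8.90% in CD8+ and 0.744% in CD4+ tumors, and TRBV20 and TRBV2 were higher in CD4+ tumors with no overlap between the mice of the subsets.

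Among J segments, TRBJ2-7 (chromosome 6 of GRCm38, 41543810 to 41543856) had the most convergent groups in both subsets, 349 in CD4+ and 2059 in CD8+ tumors, or 22.5% and 29.97% of the convergent groups. It took part in 19.2% and 21.5% of all groups. It was followed by TRBJ1-1 with 190 and TRBJ2-5 (41543453 to 41543501) with 185 groups in CD4+ tumors, and by TRBJ2-1 with 1097 and TRBJ2-5 with 759 in CD8+ tumors. Of the groups with TRBJ2-7, 2.78% were convergent in CD4+ and 6.12% in CD8+ tumors. With the mice pooled, TRBJ1-5 had the smallest share in both, 1.27% and 1.30%.

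The CDR3 of convergent groups was compared with that of the other groups of the same mouse and subset, since neither length nor position values had chosen the members. With 1 value per mouse, 10 comparisons, of which 2 were the shares in both tumors given above without a p, were tested by an exact two-sided permutation test over the 70 splits of 8 values, in which the smallest possible p is 0.0286, and p-values were adjusted by Benjamini and Hochberg. With the mouse as a replicate block, each comparison below had p = 0.125, the smallest an exact test of 4 pairs allows. In CD4+ tumors the mean length was 13.6 ± 0.0212 amino acids in convergent and 13.9 ± 0.0416 in the other groups (SD, n = 4 mice), a difference of -0.385 ± 0.0575 (exact permutation p = 0.0286, adjusted p = 0.0317, shorter in 4 of 4 mice). In CD8+ tumors the means were 13.7 ± 0.0136 and 14.1 ± 0.0201, a difference of -0.360 ± 0.0296 with the same exact p-values and 4 of 4 mice shorter. The median was 14 amino acids in the convergent and in the other groups of every mouse. In CD4+ tumors 4.12% of the groups of 11 amino acids were convergent, 2.58% of those of 14 and 1.14% of those of 16. In CD8+ tumors the shares were 6.26%, 5.48% and 2.17%. The fall with length was not steady. At 10 amino acids the share was 2.37% in CD4+ and 5.21% in CD8+ tumors, and at 13 it was 5.04% in CD8+ tumors.

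Convergent groups had fewer bases between V and J. In the first sequence of a group, the mean was 7.43, 7.46, 7.64 and 7.40 bases in the CD4+ tumors of mice 5 to 8, and it was 9.49, 9.66, 9.65 and 9.67 bases in the other groups. In CD8+ tumors the values were 8.66, 8.75, 8.47 and 8.69 bases in convergent and 9.96, 10.1, 10.2 and 10.1 bases in other groups. The sets did not overlap in either subset, and the differences were -2.14 ± 0.119 and -1.44 ± 0.174 bases (SD, n = 4, exact permutation p = 0.0286, adjusted p = 0.0317 for both). The difference was larger in CD4+ tumors, but the test of the subsets against each other did not pass after adjustment over 5 tests (exact permutation p = 0.0286, adjusted p = 0.0714). V and J met without a base between them in 2.16% to 3.78% of the CD4+ convergent groups and 0.910% to 1.09% of the other groups. In CD8+ tumors these shares were 0.721% to 1.57% and 0.670% to 0.871%. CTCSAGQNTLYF is of this kind, with 0 bases between V and J in the leading sequences of mice 5 and 7 and 2 in those of mice 6 and 8. The mean number of glycines per CDR3 was at least 1.59 in the CD4+ convergent and at most 1.54 in the other groups of each mouse, and at least 1.47 and at most 1.39 in CD8+ tumors.

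Convergent groups were more often found in another mouse. A group was counted here when its V segment, J segment and amino acid sequence occurred in the tumors of another mouse, same subset. The nucleotide sequence found there had to be absent from its own tumors, so the same sequence read in both mice did not count. Reads carried over could still place a group in a mouse, which was not tested. In CD4+ tumors a find in another mouse held for 43.2%, 42.9%, 35.3% and 44.9% of the convergent groups of mice 5 to 8 and for 11.4%, 9.72%, 7.46% and 8.60% of the other groups. In CD8+ tumors it held for 77.3%, 71.6%, 55.4% and 69.3% and for 22.5%, 19.3%, 12.9% and 18.7%. The differences of 32.3 ± 3.47 and 50.02 ± 5.35 percentage points were larger than the spread between mice (SD, n = 4, exact permutation p = 0.0286, adjusted p = 0.0317 for both, higher in 4 of 4 mice). The subsets did not differ from each other past the threshold (exact permutation p = 0.0286, adjusted p = 0.0714).

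**Figure D5:**
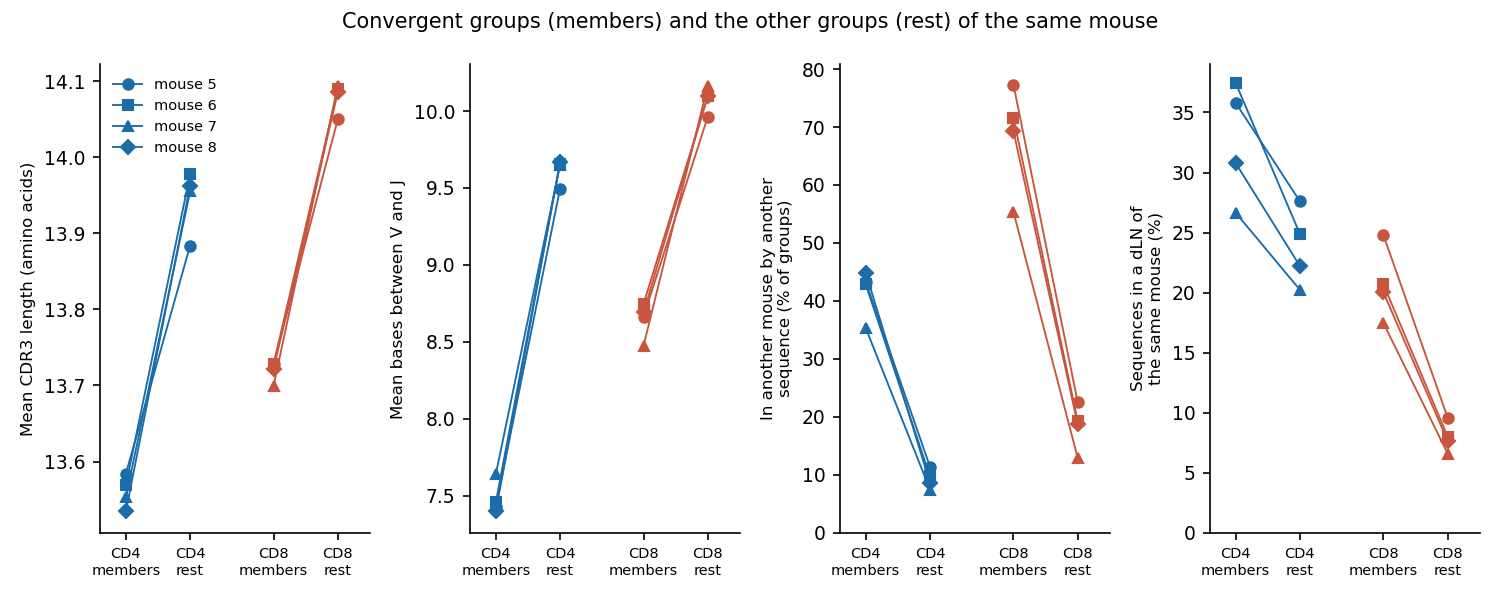
Mean CDR3 length (amino acids), mean number of bases between V and J, share of groups found in another mouse in another nucleotide sequence (%) and share of sequences found in a dLN of the same mouse (%), for convergent groups (members) and other groups (rest) of CD4+ (blue) and CD8+ (red) tumors, with 1 line per mouse. Members lie below the rest in the first and second panels, whose axes do not start at 0, and above it in the others, with overlap between mice only for the dLN share of CD4+ T cells.

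The sequences of convergent groups were also looked for in the dLN libraries, which had no part in choosing them. Of all sequences of 20 tumor reads, 23.4% in CD4+ and 8.67% in CD8+ tumors were found in a dLN of the same mouse. In CD8+ T cells the share was 17.5% to 24.8% of the convergent sequences and 6.60% to 9.59% of the others over mice 5 to 8, a difference of 12.8 ± 1.80 percentage points (SD, n = 4, exact permutation p = 0.0286, adjusted p = 0.0317). The lowest convergent value lay above the highest of the others. In CD4+ T cells it was 35.8%, 37.5%, 26.7% and 30.8% and 27.6%, 24.9%, 20.2% and 22.2%, higher in 4 of 4 mice. That difference, 8.94 ± 2.60 percentage points, did not pass the threshold (exact permutation p = 0.0571, adjusted p = 0.0571). The call depended on depth and read minimum, and it passed at equal depth (12.4 percentage points, adjusted exact permutation p = 0.0357), at 6 reads per sorted cell (16.9, 0.0286) and at a minimum of 50 reads (12.5, 0.0286).

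Convergent sequences had somewhat more tumor reads than the others, with medians of 86 to 129 against 77 to 99 over the CD4+ and 40 to 43 against 37 to 39 over the CD8+ tumors of the mice. Frequent sequences were found in the dLNs more often, so the shares were also taken within ranges of tumor frequency. Among CD8+ sequences under 0.001%, 18.8% ± 2.66 of the convergent and 6.65% ± 0.874 of the other ones were found in a dLN (SD, n = 4 mice). From 0.001% to 0.01% the shares were 43.5% ± 5.74 and 24.3% ± 6.83. From 0.01% to 0.1% they were 60.4% ± 42.7, over 9 convergent sequences, and 58.0% ± 4.42, and at 0.1% and above 88.9% ± 19.2, over 7 sequences of 3 mice, and 79.8% ± 6.50, both within the spread between mice. Among CD4+ sequences under 0.001% they were 11.1% ± 3.40 and 11.8% ± 1.46, with no excess of convergent ones, and from 0.001% to 0.01% they were 37.0% ± 6.02 and 25.8% ± 4.63. From 0.01% to 0.1% they were 79.4% ± 6.59 and 74.5% ± 6.44, a difference within the spread between mice. At 0.1% and above, 94.4% ± 7.32 and 90.7% ± 3.62 of CD4+ sequences were found in a dLN. Both leading sequences were found in the dLNs in 253 CD4+ and 381 CD8+ groups, and neither in 827 and 4631.

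Some groups were convergent in several mice. Counted once each, the CD4+ groups were 1398 different ones, of which 96 were convergent in 2 mice, 19 in 3 and 6 in all 4. The CD8+ groups were 5632 different ones, with 641, 185 and 76 in 2, 3 and 4 mice. Besides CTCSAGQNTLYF, the CD4+ groups in all 4 mice with the most reads were a TRBV1/TRBJ1-1 group with a CDR3 of 15 amino acids, TRBV1/TRBJ2-2 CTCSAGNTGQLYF, TRBV15/TRBJ1-1 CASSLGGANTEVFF and TRBV20/TRBJ2-7 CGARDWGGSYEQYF. The TRBV1/TRBJ1-1 group had 252, 3577, 15464 and 3679 reads in mice 5 to 8, and it made up 0.0395% to 0.273% of each CD4+ CD44hi library of the dLNs. In mouse 5 it was found in the left tumor only. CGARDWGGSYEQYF stayed low, with 109 to 1615 reads.

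In CD8+ tumors the groups in all 4 mice with the most reads were TRBV12-2/TRBJ2-5 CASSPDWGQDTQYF, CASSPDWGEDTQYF and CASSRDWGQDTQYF, TRBV13-1/TRBJ2-7 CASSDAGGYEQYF and TRBV16/TRBJ2-7 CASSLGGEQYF. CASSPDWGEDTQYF had 474, 755, 1193 and 495 reads in mice 5 to 8, in 6, 8, 8 and 5 sequences. It made up at most 0.0153% of the reads of a tumor, in many small clones. Its 3 sequences with the most reads were found in all 4 mice, which is why they are shown, with capitals at the positions that vary among the 13 sequences of the group.
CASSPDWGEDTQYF, sequence 1: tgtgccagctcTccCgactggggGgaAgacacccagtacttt
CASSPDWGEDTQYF, sequence 2: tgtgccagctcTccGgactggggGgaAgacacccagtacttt
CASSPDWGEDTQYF, sequence 3: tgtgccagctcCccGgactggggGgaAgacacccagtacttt
Sequence 1 was read 153, 204, 328 and 128 times, sequence 2 35, 221, 456 and 78 times, and sequence 3 22, 21, 199 and 236 times in mice 5 to 8. The order of the sequences thus differed between mice. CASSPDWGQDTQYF had 19 sequences over the mice, 2 of them in all 4, and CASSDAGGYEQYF had 21, 1 of them in all 4.

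Few groups were convergent in both subsets of a mouse. This held for 4, 21, 56 and 19 groups in mice 5 to 8, or 2.16%, 5.66%, 9.56% and 4.66% of the CD4+ and 0.721%, 1.46%, 1.54% and 1.53% of the CD8+ groups.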

How the data were processed

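The authors trimmed reads of TCRβ libraries with Cutadapt 3.2 and PRINSEQ, assembled productive clones with MiXCR, which corrects PCR and sequencing errors, and converted them with VDJtools. The deposited files give for each clone a read count, the fraction of the library's reads, as computed by the authors, the CDR3 sequence, the segments and the positions of V end and J start. The deposited counts were not down-sampled and carry no molecular identifiers, so reads are not independent molecules and small read numbers carry counting error beyond what is shown.

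Members and lists were chosen with earlier results of these data known. Frequencies are percent of the reads of a tumor, with its fragments summed. Estimated cells are frequency times sorted cells, the latter taken from the study's table of cell numbers. The number of bases between V and J was taken from the deposited positions, with negative values set to 0. Groups were named by a rule: for each mouse and subset the group with the most reads and that with the largest second sequence, over all the group with the most sequences in each subset and up to 5 groups convergent in the most mice, and, for V and for J, the 3 segments that occurred in the most groups. Members and rest were compared with 1 value per mouse. Their p-values measure the spread between 4 mice. A permutation test of the share in both tumors was run too, but its p is not used, since the same libraries chose the members. Members and rest of a mouse come from the same animal, which pairs them, and the labels number left and right tumors by mouse. Left and right read shares deviated together from the subset means (r = 0.973 over 8 pairs, as a description). With the mouse as a replicate block, each test has 16 sign changes and a smallest p of 0.125, which every comparison of members with the rest reached. The steps that found groups and called differing clones were tested on simulated data.

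Alternatives covered read minimums of 10 and 50, ratios of 20% and 50%, sequences at least 2 bases apart, removal of sequences more frequent in another mouse or subset, equal depth, 6 reads per sorted cell, other thresholds, and leaving out each mouse. Segment coordinates are those of the GENCODE annotation of GRCm38. Tables were made with pandas 2.3.3 and numpy 2.4.6 in Python 3.11.15, Fisher's tests with scipy 1.17.1, and figures with matplotlib 3.10.9.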

Additional observations from a re-analysis of the deposited data

How the results depend on the processing

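The rule's thresholds and the depth moved the description. In CD4+ and CD8+ tumors, the mean number of groups per mouse, 387.5 and 1718, was 2959 in CD8+ tumors at a minimum of 10 reads, and 243 and 381 at 50 reads, 167 and 1124 at a ratio of 50%, 166 and 918.5 at 2 bases apart, 174 and 445 at 6 reads per sorted cell, and 245 and 168 at equal depth. The share of groups with both sequences in both tumors, 20.2% and 6.15%, was 17.0% and 3.81% at 10 reads, 31.2% and 18.2% at 50 reads, 41.8% and 19.3% at 6 reads per cell, 29.4% and 28.0% at equal depth, and 25.2% in CD4+ tumors at 2 bases apart. The read share, 5.78% and 2.75%, was 2.12% and 1.39% at a ratio of 50% and 3.13% and 1.61% at 2 bases apart, and in CD8+ tumors 1.56% at 50 reads, 1.62% at 6 reads per cell and 1.29% at equal depth. The share of groups with both sequences expanded, 0.773% and 0.0375%, was 1.70% and 0.193% at 6 reads per cell. In CD4+ tumors it was 1.26% at 50 reads, 1.31% at a ratio of 50% and 1.33% at 2 bases apart. In CD8+ tumors it was 0.0220% at 10 reads, 0.176% at 50 reads and 0.697% at equal depth. When expanded meant 1% and 0.01%, it was 0.0% and 6.48% in CD4+ tumors and 0.0% and 0.0790% in CD8+ tumors. With q under 0.05, 294 and 40 members differed between left and right, against 134 and 24.

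In the comparisons of members with the rest, these settings reversed no direction, but below 0.001% the CD4+ dLN shares stood the other way and within the spread between mice, 11.1% ± 3.40 of the members of the full rule against 11.8% ± 1.46 of the rest (SD, n = 4). The difference in length was 0.0 in both subsets when medians were taken, with an adjusted exact permutation p of 1.0. The CD4+ dLN difference passed the threshold at 50 reads (12.5 percentage points, adjusted exact permutation p = 0.0286), when the rule was applied to sequences between 0.01% and 0.1% alone (11.5 ± 10.3, 0.0317), at 6 reads per cell (16.9, 0.0286) and at equal depth (12.4, 0.0357), over a range of adjusted p from 0.0286 to 0.143. Members of the full rule in that range differed less from the rest, 79.4% against 74.5%. The difference in both tumors, a value with no test (8.16 and 7.58 percentage points), was 2.97 and 4.40 at a ratio of 50%, 10.6 and 13.9 at equal depth and, in CD4+ tumors, 2.26 between 0.01% and 0.1%. It was 12.7 and 13.4 at 6 reads per cell and 10.2 and 12.2 at 50 reads. The differences in bases between V and J and in groups found in another mouse kept their direction and stayed past the threshold in both subsets under the settings where it could be reached, and so did the CD8+ dLN difference. Their size moved by over 1.5 times in 2 cases, the CD8+ difference between V and J from -1.44 to -0.875 bases at 2 bases apart and the CD4+ difference in another mouse from 32.3 to 55.9 percentage points between 0.01% and 0.1%.

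Leaving out 1 mouse at a time gave from 321 to 455 CD4+ and from 1079 to 2105 CD8+ groups, the lowest without mouse 7. The share with both sequences expanded was lowest at 0.490% without mouse 5 in CD4+ and at 0.0231% without mouse 8 in CD8+ tumors. With 3 mice the threshold could not be reached, and these settings were treated as values without a test. The same holds for the replicate block, where the paired differences were -0.385 amino acids, -2.14 bases, and 32.3 and 8.94 percentage points in CD4+ tumors (other mouse, dLN), and -0.360, -1.44, 50.02 and 12.8 in CD8+ tumors, each with an exact p of 0.125. The cause of these changes was not tested.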
